A study of Homo sapiens with 6 samples.

Results

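C6 is a derivative of SW620, a widely used cell line from a human colorectal tumour, in which a lentiviral short hairpin RNA stably silences DKC1, the gene for dyskerin. It was compared with a line of the same cells that carried a non-targeting scrambled hairpin. The libraries were taken by their titles, and 4 of the 6 libraries of the series entered the comparison: 2 of C6 and 2 of scramble. The other 2 libraries came from C3, another DKC1 knockdown line, and were used in the shared estimate of the spread and in a comparison of C6 with C3. All 3 lines carried hairpins in pLV vectors, were grown in Leibovitz's L-15 medium under puromycin at 1 µg/mL, and were labelled as otherwise untreated. C6 stands for 1 knockdown line and scramble for 1 control line, so a property of either line and an effect of the hairpin cannot be told apart. The sources used here do not say which of the study's pair of DKC1 hairpins C6 carries. The titles call the libraries biological replicates but do not say that they came from separate cultures, so the p-values measure the spread between these libraries, which may be technical.

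Dyskerin is the pseudouridine synthase of the H/ACA ribonucleoprotein particle, in which it sits with NHP2, NOP10 and GAR1 on a guide RNA. The particle converts uridines of ribosomal and spliceosomal RNA to pseudouridine, and the same proteins bind and stabilise the RNA of telomerase. Inherited loss of dyskerin function causes dyskeratosis congenita, and DKC1 is often highly expressed in colorectal tumours.

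The 4 libraries held 26077966 to 28425155 gene counts, and 13299 of 19672 listed genes passed the filter on low counts. Values are given as CPM, counts scaled to a common library size by TMM, and changes as log2 fold changes (C6 minus scramble) with the standard error of edgeR's quasi-likelihood fit. A gene was called where the Benjamini-Hochberg adjusted p of that fit was under 0.05. Of 10 markers of colon epithelium, 8 had a mean above 1 CPM and CDX1 was at 0 in all 4 libraries. Their summed level was 8263 to 8918 CPM in scramble and 8776 to 8897 CPM in C6. Single markers moved both ways: of 9 tested, KRT19, CEACAM5, CDH17 and CDX2 were called higher and VIL1 and EPCAM lower. That is 66.7%, against 46.7% of all genes tested. The CDX2 call was lost with upper-quartile scaling and by DESeq2. The leukocyte markers PTPRC, CD3E and MS4A1 and the fibroblast markers COL1A2, COL3A1 and DCN were at 0 in all 4 libraries, as were the endothelial markers CDH5 and CLDN5 and the neuronal marker RBFOX3. Other members of these lists were detected. Summed leukocyte markers were at 2.53 and 3.35 CPM in scramble and 2.13 and 3.09 CPM in C6. Summed endothelial markers were at 6.43 and 5.51 CPM in scramble and 6.15 and 5.68 CPM in C6. In each of these lists 1 marker had a mean above 1 CPM. Summed fibroblast markers were at 24.4 and 23.3 CPM in scramble and 18.9 and 20.1 CPM in C6. The 7 neuronal markers summed to 107 and 103 CPM in scramble and 81.7 and 85.4 CPM in C6. All 3 that passed the filter, GAP43, SYP and TUBB3, were called lower in C6. Of 4 fibroblast markers that passed it, LUM, COL1A1 and PDGFRB were called lower and THY1 higher. The calls of SYP, TUBB3 and PDGFRB were lost by DESeq2. What these markers contribute to the other results was not tested.

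DKC1 itself (chromosome X, 154762864 to 154777689, GRCh38.p14) was at 319.7 and 315 CPM in the scramble libraries and at 70.3 and 67.1 CPM in C6. The groups did not overlap, which was so for 72.9% of all genes tested, and DKC1 fell by 2.21 ± 0.06 on the log2 scale (edgeR adjusted p = 3.5e-12). C3 lay between them at 144 and 149 CPM, and C6 was lower than C3 (log2 difference -1.10 ± 0.06, edgeR adjusted p = 1.7e-09). The tested genes around DKC1 had a median log2 fold change of 0.31, so DKC1 moved against its neighbours.

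Among the other 12 genes of the H/ACA particle, its assembly and telomerase, 1 was called higher in C6 and 1 lower, against 46.7% of all genes tested that were called in either direction. NAF1, the assembly factor that precedes GAR1 on the maturing particle, was at 64.5 and 58.4 CPM in scramble and 33.4 and 36.7 CPM in C6. It fell by 0.81 ± 0.08 on the log2 scale (edgeR adjusted p = 1.4e-06), in a stretch of chromosome 4 whose neighbouring genes had a median of -0.46. TERT, the reverse transcriptase of telomerase, was low everywhere, at 2.38 and 2.05 CPM in scramble and 4.14 and 4.89 CPM in C6. It rose by 1.03 ± 0.25 (edgeR adjusted p = 0.0034) on chromosome 5, where the neighbours' median was 0.38. Set against those neighbours the TERT difference was 0.65 (edgeR adjusted p = 0.05) and no longer called. The core partners of dyskerin were not called. NHP2 was at 64.2 and 59.2 CPM in scramble and 74.5 and 66.5 CPM in C6, NOP10 had a log2 fold change of 0.13 ± 0.07, and GAR1 one of 0.23 ± 0.12. The same held for SHQ1 (-0.22 ± 0.10), the chaperone of free dyskerin, and for WRAP53 (-0.02 ± 0.09), which carries telomerase RNA to Cajal bodies.

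Across the transcriptome, 6205 genes were called in C6, 3168 higher (23.8% of those tested) and 3037 lower (22.8%). Most of these differences were small: 59.6% of the calls were under 1.5-fold. At 2-fold or more, falls outnumbered rises, with 739 lower and 420 higher. The imbalance was wider at 8-fold or more, with 112 lower and 51 higher. The split of all calls depended on the scaling, since 51.1% of calls were higher with TMM and 41.6% with upper-quartile scaling.

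The 15 largest rises, taken from called genes with a mean of at least 5 CPM, included membrane transporters, guidance receptors and secreted proteins. SLC38A4, a sodium-coupled amino acid transporter, was at 0.557 and 1.27 CPM in scramble and 16.5 and 15.4 CPM in C6, a log2 fold change of 4.12 ± 0.26 (edgeR adjusted p = 1.3e-08). ROBO2, a receptor for SLIT guidance cues, was at 2.53 and 1.82 CPM in scramble and 26.9 and 29.2 CPM in C6 (3.69 ± 0.16, edgeR adjusted p = 2.7e-10). PLXNA2, a semaphorin receptor, rose by 2.63 ± 0.20, from 3.53 and 5.51 CPM to 24.0 and 32.0 CPM. The rule that picked these genes required C6 libraries that did not overlap scramble, which held for 72.9% of all genes tested. The urea transporter SLC14A1 rose from 1.89 and 2.27 CPM to 11.5 and 11.5 CPM (2.47 ± 0.21).

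MMP7, or matrilysin, a secreted protease of intestinal epithelium and its tumours, was at 1.04 and 1.01 CPM in scramble and 9.61 and 9.85 CPM in C6 (3.24 ± 0.24, edgeR adjusted p = 4.7e-08). GPR35, a G protein-coupled receptor of the gut, was at 4.76 and 5.06 CPM and 33.2 and 32.0 CPM (2.73 ± 0.12, edgeR adjusted p = 3e-10). It rose within a stretch of chromosome 2 where the neighbouring genes had a median of -0.38. PTK6, a non-receptor tyrosine kinase of differentiating gut epithelium, rose from 3.45 and 4.10 CPM to 19.1 and 21.7 CPM (2.43 ± 0.15). MALL, a proteolipid of membrane rafts, rose by 2.52 ± 0.12, and SPRR2D, of the cornified envelope family, by 2.85 ± 0.13. The close relatives of SPRR2D share sequence with it, and the sources used here do not say how reads of such copies were assigned.

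EEF1A2, a translation elongation factor normally restricted to muscle and nerve, was at 33.3 and 32.8 CPM in scramble and 284 and 285 CPM in C6 (3.11 ± 0.07, edgeR adjusted p = 1.8e-13). It lies on the long arm of chromosome 20, as do PTK6 and ATP9A, a P4-type ATPase of endosomes that rose by 2.49 ± 0.13. Their neighbours' medians were 0.70, 0.70 and 0.55, well below each gene's own log2 change. ATP6V0A4, a subunit of the vacuolar proton pump, was at 5.98 and 5.40 CPM in scramble and 54.3 and 54.6 CPM in C6 (3.26 ± 0.11, edgeR adjusted p = 2.2e-11). It overlaps TMEM213, so reads of this pair may not have been separated. The remaining rises were APOL6, an intracellular apolipoprotein L (3.61 ± 0.15), KLRC2, a natural killer cell receptor (3.31 ± 0.15), and IGFBP1, an insulin-like growth factor binding protein (2.71 ± 0.14). KLRC2 shares sequence with its neighbour KLRC1, and the reads of this pair may not have been fully separated. In scramble KLRC2 had 86 and 71 counts where KLRC1 had 0 and 0.

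**Figure D1:**
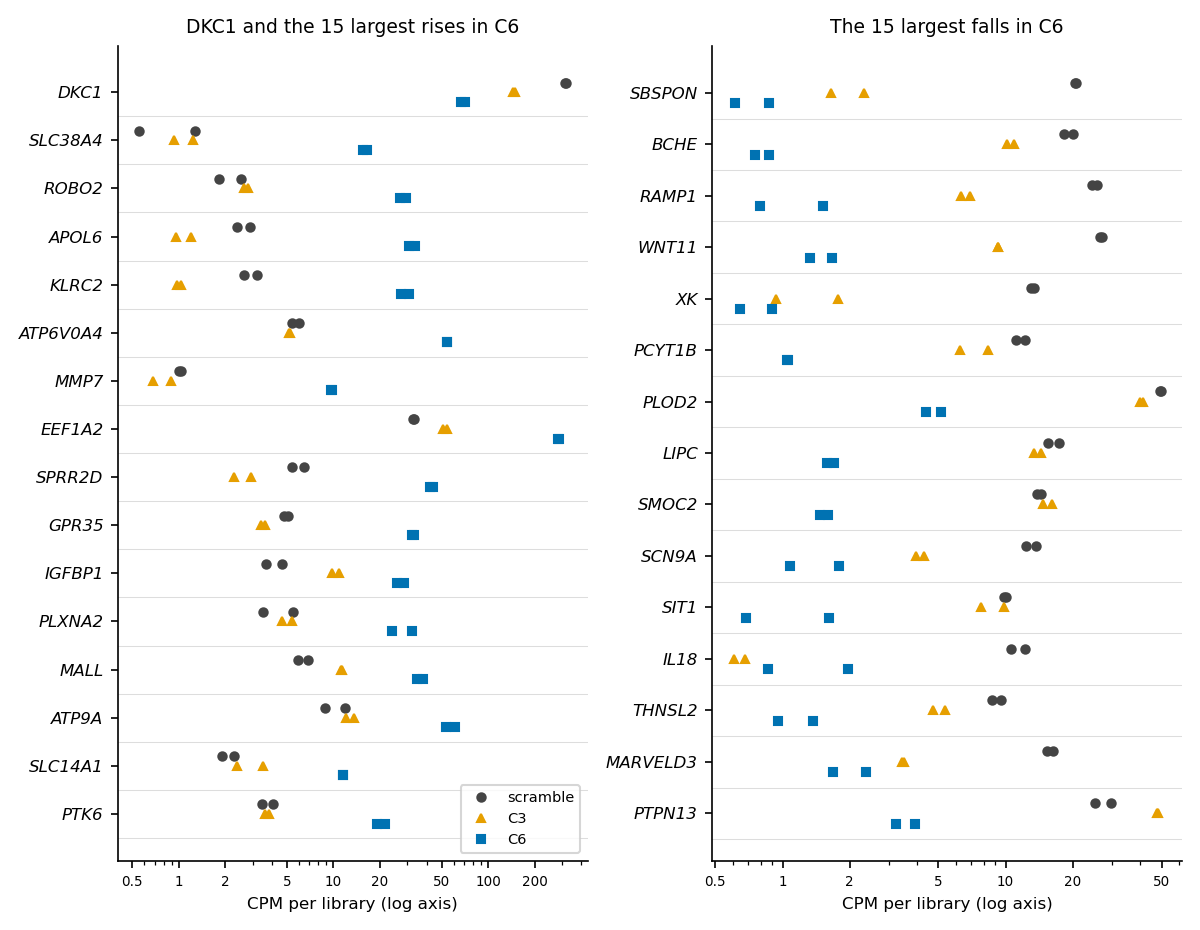
CPM of DKC1 and the 15 largest rises (left) and of the 15 largest falls (right) in each library, on log axes; 2 points a line, circles for scramble, triangles for C3 and squares for C6. Both C6 libraries lie outside the scramble pair for every gene, which the choice of these genes required, while C3 lies near scramble for some (ROBO2, SMOC2, LIPC) and near C6 for others (XK, IL18).

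The 15 largest falls included a ligand, a neuropeptide receptor partner and several enzymes. SBSPON, a secreted protein with a thrombospondin repeat, was at 20.4 and 20.6 CPM in scramble and 0.873 and 0.611 CPM in C6, a log2 fold change of -4.78 ± 0.22 (edgeR adjusted p = 3.4e-10). BCHE, the plasma cholinesterase, fell from 18.2 and 20.03 CPM to 0.873 and 0.755 CPM (-4.55 ± 0.18). RAMP1, which makes the calcitonin receptor-like receptor a receptor for the peptide CGRP, fell from 25.6 and 24.4 CPM to 1.52 and 0.791 CPM (-4.44 ± 0.20), with a neighbours' median of -0.27 on chromosome 2. All 3 genes were close to 1 CPM in C6, where a CPM stands for under 30 counts a library.

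WNT11, a WNT ligand that mostly signals without beta-catenin, was at 26.5 and 27.0 CPM in scramble and 1.67 and 1.33 CPM in C6 (-4.15 ± 0.15, edgeR adjusted p = 4.4e-11). PLOD2, the lysyl hydroxylase that prepares collagen for cross-links, fell from 49.5 and 49.4 CPM to 5.13 and 4.39 CPM (-3.38 ± 0.11, edgeR adjusted p = 1.4e-11). Lipid enzymes were represented by LIPC, hepatic lipase (-3.32 ± 0.16), and by PCYT1B, an isoform of the rate-setting enzyme of phosphatidylcholine synthesis (-3.47 ± 0.22). SMOC2, a matrix protein of intestinal stem cells, fell by 3.20 ± 0.16 on the log2 scale. IL18, an epithelial cytokine, was at 12.2 and 10.5 CPM in scramble and 1.97 and 0.863 CPM in C6 (-3.01 ± 0.28). The C6 pair of IL18 lay far apart on the log scale, and both were below scramble. MARVELD3, a tight junction protein, fell by 2.97 ± 0.18, and PTPN13, a large protein tyrosine phosphatase, by 2.93 ± 0.13. XK, SCN9A (a voltage-gated sodium channel), SIT1 (a lymphocyte adaptor) and THNSL2 had log2 fold changes of -4.08, -3.19, -3.09 and -2.97.

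A small set of genes had at most 3 counts in each library of one group. In C6, 6 called genes with a mean of at least 1 CPM had at most 3 counts in each scramble library, and for 11 genes the reverse held. DTNA, or dystrobrevin alpha, had 0 and 0 counts in scramble and was at 3.00 and 3.63 CPM in C6, at least 59.6-fold higher against a floor of 3 counts over the scramble pair. CD2, an adhesion molecule of T cells, had 0 and 0 counts in scramble and 55 and 51 in C6 (at least 35.1-fold higher). DEFA6, a defensin of Paneth cells, had 0 and 0 against 30 and 34 (at least 21.2-fold higher). KLRC1 had 0 and 0 against 111 and 52, and it was not called by DESeq2. KLHL35 and NCKAP5 completed the set.

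In the other direction, TMEM30B, a subunit of lipid flippases, had 51 and 40 counts in scramble and 0 and 0 in C6, at least 30.5-fold lower. HTRA3, a secreted serine protease, had 42 and 45 counts against 0 and 0 (at least 29.2-fold lower), and MNS1, a protein of cilia and sperm, had 37 and 47 against 0 and 0 (at least 28.2-fold lower). MAP2, a neuronal microtubule protein, had 138 and 134 counts in scramble and 3 and 0 in C6, a ratio of 91.3 with a 95% exact counting interval from 30.9 to 445. CDK15 had 40 and 37 counts against 2 and 2. TMEM30B overlaps PRKCH, MNS1 overlaps TEX9 and BICDL2, another gene of this set, overlaps THOC6. These genes are near the limit of what the libraries could detect in one group, so the floors and the interval cover counting error only.

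Among the pathways, sterol synthesis had the largest share of called genes among the 35 lists (88.5%): 20 of 26 members fell and 3 rose, with a median log2 fold change of -0.46 beside -0.01 over all genes tested. This pathway builds cholesterol from acetyl-CoA, and its genes are jointly driven by the transcription factor SREBP-2. DHCR7, which makes cholesterol from 7-dehydrocholesterol in the last step, was at 170.0 and 164 CPM in scramble and 74.6 and 79.5 CPM in C6 (-1.11 ± 0.06, edgeR adjusted p = 4.1e-09). STARD4, a carrier of cholesterol between membranes, fell from 38.9 and 41.6 CPM to 14.2 and 12.1 CPM (-1.61 ± 0.10, edgeR adjusted p = 8.8e-09). For both genes the C6 libraries were below both scramble libraries, and C3 lay between the groups. The 3 members that rose were EBP, TM7SF2 and PMVK, enzymes of the same pathway that were named here after their values were seen.

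Because these members moved together, the 250 bases before their start sites were searched in RefSeq's GRCh38.p14 promoter table for CCAAT or its reverse complement ATTGG, the box bound by NF-Y, a partner of SREBP-2. The motif was present in 15 of the 19 cholesterol genes with an entry (78.9%), against 35.0% of the 10629 tested genes with an entry. The sterol regulatory element TCACNCCAC, also searched, was found in 1 of the 19 (5.26%, against 0.894% of tested genes). The letters CACGTG were found in 3 (15.8%, against 8.95%). The windows of DHCR7 (chr11:71448394-71448643, minus strand) and STARD4 (chr5:111512536-111512785, minus strand) are shown as the 2 with the smallest p, 5′ to 3′, with the boxes in capitals.
DHCR7: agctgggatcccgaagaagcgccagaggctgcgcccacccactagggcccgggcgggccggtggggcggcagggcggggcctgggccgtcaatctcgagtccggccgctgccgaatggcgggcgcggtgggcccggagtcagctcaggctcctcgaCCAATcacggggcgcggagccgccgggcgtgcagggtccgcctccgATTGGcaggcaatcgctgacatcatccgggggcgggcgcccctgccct
STARD4: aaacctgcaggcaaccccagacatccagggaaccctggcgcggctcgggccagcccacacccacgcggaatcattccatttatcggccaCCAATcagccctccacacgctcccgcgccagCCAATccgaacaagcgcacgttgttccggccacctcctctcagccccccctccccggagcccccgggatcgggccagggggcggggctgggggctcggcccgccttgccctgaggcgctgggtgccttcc
The DHCR7 window lies inside the gene's annotated span (chr11:71427287-71449043), so the start used is not the gene's outermost one. The boxes of DHCR7 begin 94 and 48 bases before that start, and those of STARD4 161 and 130 bases before its own. Over all tested genes the CCAAT motif did not go with a direction: the median log2 fold change was -0.02 with it and -0.01 without it. A match describes these letters only and is no evidence of binding.

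Fatty acid synthesis, driven mainly by SREBP-1, was lower in part: 10 of 20 members fell and 4 rose (median -0.22). Called members made up 70% of the list, against 46.7% of all genes tested. FASN, fatty acid synthase, was at 421 and 441 CPM in scramble and 205 and 249 CPM in C6 (-0.92 ± 0.08, edgeR adjusted p = 5.7e-07). ACSL3, which activates fatty acids for lipid droplets, fell by 0.96 ± 0.06 on the log2 scale, in a region of chromosome 2 with a neighbours' median of -0.30. FADS2, the delta-6 desaturase, fell from 19.4 and 21.3 CPM to 6.68 and 9.17 CPM (-1.36 ± 0.14), although it overlaps FADS1. ELOVL1, which elongates saturated very long chains, moved the other way, from 60.0 and 59.6 CPM to 108 and 109 CPM (0.86 ± 0.07, edgeR adjusted p = 8.6e-08).

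Sphingolipid genes showed no common direction. Of 33 tested members, 8 rose and 8 fell, 48.5% of the list against the background of 46.7%, and the median was 0.04. At the entry of the pathway, SPTLC2, a catalytic subunit of serine palmitoyltransferase, fell from 72.5 and 79.0 CPM to 43.4 and 45.4 CPM (-0.77 ± 0.07, edgeR adjusted p = 8.2e-07), and its small activating subunit SPTSSA fell by 0.50 ± 0.07 on the log2 scale. SPTLC1, the partner subunit, had a log2 fold change of 0.10 ± 0.06 and was not called. The ORMDL proteins that restrain the enzyme split: ORMDL2 rose by 0.91 ± 0.12, ORMDL1 fell by 0.40 ± 0.08 and ORMDL3 was not called (0.26 ± 0.12). ORMDL1 lies in the lower stretch of chromosome 2, and less its neighbours' median its difference was 0.12 and not called.

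Ceramide synthases, which differ in the chain length they attach, also split. CERS6 fell from 163 and 176 CPM to 109 and 111 CPM (-0.62 ± 0.06) but lies on chromosome 2 as well, and less its neighbours' median it was not called. CERS4 fell by 0.98 ± 0.16 and CERS2, the synthase of very long chains, rose by 0.26 ± 0.06. At the exit, SGPL1, the lyase that removes sphingosine 1-phosphate for good, was at 149 and 151 CPM in scramble and 272 and 308 CPM in C6 (0.95 ± 0.07, edgeR adjusted p = 2.4e-08). Both C6 libraries of SGPL1 were above both scramble libraries by more than 100 CPM. SGPP2, a phosphatase of the same lipid, fell from 13.9 and 12.5 CPM to 3.04 and 2.34 CPM (-2.29 ± 0.18, neighbours' median -0.30), and SPHK1, the kinase that makes it, was near the detection limit at 0.706 and 0.782 CPM against 0.228 and 0 CPM. The SPHK1 call was lost without either scramble library or the second C6 library. Acid sphingomyelinase, SMPD1, rose by 0.78 ± 0.12, whereas DEGS1, UGCG, KDSR and SGMS1 were not called (0.04, 0.09, 0.01 and 0.04).

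Mitotic genes were lower in C6. Of 45 members of the G2/M list, 30 fell and 3 rose (median -0.36), 73.3% of the list against the background of 46.7%. PLK1, a kinase of mitotic entry and exit, was at 88.0 and 87.5 CPM in scramble and 46.4 and 49.0 CPM in C6 (-0.88 ± 0.07, edgeR adjusted p = 8.3e-08). KIF20B, a kinesin of cytokinesis, fell from 108 and 118 CPM to 73.7 and 75.3 CPM (-0.60 ± 0.07). TACC3, which stabilises spindle fibres, was at 72.3 and 73.5 CPM and 33.4 and 35.6 CPM (-1.08 ± 0.07), and CKAP2, a spindle microtubule protein, at 111 and 113 CPM and 56.3 and 56.5 CPM (-0.99 ± 0.06). TACC3 and CKAP2 lie where the neighbours' medians were -0.76 and -0.64. Less their neighbours' medians, 27 members of the list were still called lower and 2 higher. In bulk RNA, fewer cells in mitosis and less of these transcripts per cell cannot be told apart.

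The 3 members that rose, CDC25B, ANLN and AURKB, were named here after their values were seen. DNA replication genes were also more often lower, 20 of 43 against 8 higher, with a median of -0.13 (15 against 6 and -0.08 without the second scramble library). CDT1, the licensing factor of replication origins, fell from 80.2 and 81.2 CPM to 47.4 and 49.5 CPM (-0.74 ± 0.07), in a stretch of chromosome 16 with a neighbours' median of -0.63, and it was not called less that median. POLD1, the catalytic subunit of DNA polymerase delta, fell by 0.75 ± 0.08 on the log2 scale (edgeR adjusted p = 2.1e-06) outside any such stretch. UHRF1, which maintains DNA methylation behind the fork, fell by 0.64 ± 0.07. Called genes were 65.1% of the DNA replication list, against the background of 46.7%.

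CCAAT boxes also belong to many mitotic promoters, often with the element TTTGAA near the start site. In the 250 bases before the start, 27 of 36 G2/M genes with an entry held CCAAT (35.0% of tested genes did), and 17 held TTTGAA or its reverse complement TTCAAA (47.2%, against 8.35%). The windows of PLK1 (chr16:23678639-23678888, plus strand) and KIF20B (chr10:89701340-89701589, plus strand) are shown as one with both motifs and one with CCAAT alone, with both motifs in capitals.
PLK1: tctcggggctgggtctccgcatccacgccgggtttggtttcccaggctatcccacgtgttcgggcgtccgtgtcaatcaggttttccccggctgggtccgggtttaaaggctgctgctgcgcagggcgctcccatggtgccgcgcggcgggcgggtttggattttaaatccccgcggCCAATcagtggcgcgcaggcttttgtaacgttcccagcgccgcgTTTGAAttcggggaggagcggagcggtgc
KIF20B: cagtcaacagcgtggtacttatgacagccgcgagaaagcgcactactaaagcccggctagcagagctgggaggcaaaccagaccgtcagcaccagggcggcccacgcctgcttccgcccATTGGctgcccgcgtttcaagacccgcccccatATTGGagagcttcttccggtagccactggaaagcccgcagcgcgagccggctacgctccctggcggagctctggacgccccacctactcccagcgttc
In PLK1 the CCAAT box begins 73 bases and TTTGAA 29 bases before the start, and in KIF20B the boxes begin 131 and 98 bases before it. Within the list the motif did not separate the genes by size of change, with medians of -0.41 for members with TTTGAA and -0.42 for those without.

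Immediate-early genes, which respond within minutes to growth factors and stress, rose for the most part. Of 28 members 20 were higher and 3 lower (median 0.56), 82.1% of the list against the background of 46.7%. The 3 that fell were MYC, NR4A1 and EGR2, named here after their values were seen. KLF6, a zinc finger factor, was at 76.8 and 83.0 CPM in scramble and 237 and 235 CPM in C6 (1.56 ± 0.06, edgeR adjusted p = 1.8e-10). JUN, a subunit of AP-1, rose from 144 and 137 CPM to 298 and 306 CPM (1.11 ± 0.06), and EGR3 from 18.8 and 20.4 CPM to 48.4 and 50.1 CPM (1.33 ± 0.09, neighbours' median 0.45). DUSP1, the phosphatase that switches off stress kinases, rose by 1.17 ± 0.11. C3 lay between scramble and C6 in all 4 genes.

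Of 19 feedback genes of the ERK pathway, 7 were higher and 6 lower, 68.4% of the list against the background of 46.7%. Without the second scramble or the first C6 library 8 were higher and 3 lower, and less their neighbours' medians 7 and 3. DUSP4 and DUSP5, nuclear phosphatases of ERK, rose by 1.34 ± 0.06 and 0.78 ± 0.06. DUSP6, the cytoplasmic ERK phosphatase, fell from 216 and 225 CPM to 122 and 112 CPM (-0.91 ± 0.06, edgeR adjusted p = 2.4e-08), and SPRY2, a Sprouty inhibitor, from 65.4 and 67.4 CPM to 30.3 and 28.9 CPM (-1.16 ± 0.08). DUSP4 lay in a higher stretch of chromosome 8 and SPRY2 in a lower stretch of chromosome 13, with neighbours' medians of 0.39 and -0.51.

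Of 23 NF-kB targets and chemokines, 13 rose and 2 fell (median 0.43), 65.2% of the list against the background of 46.7%. CXCL8, a chemokine that attracts neutrophils, was at 11.1 and 10.2 CPM in scramble and 38.5 and 34.2 CPM in C6 (1.77 ± 0.11, edgeR adjusted p = 7.2e-09). CCL20, which attracts cells with the receptor CCR6, rose from 6.95 and 5.66 CPM to 19.3 and 17.1 CPM (1.53 ± 0.14) although its neighbours' median was -0.37. BIRC3, an inhibitor of apoptosis induced by NF-kB, rose from 18.4 and 17.9 CPM to 45.3 and 39.4 CPM (1.22 ± 0.10, edgeR adjusted p = 1.9e-07). The 2 members that fell were IL18 and TNFAIP2 (-3.01 and -1.21).

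Among 23 regulators of apoptosis 12 rose and 5 fell, or 3 without the first scramble library. With all libraries, called members were 73.9% of this list, against the background of 46.7%. BCL2L1 and MCL1, which protect cells, rose by 0.53 ± 0.06 and 0.45 ± 0.06. Interferon-stimulated genes had 9 of 33 higher and 9 lower, 54.5% of the list against the background of 46.7%. ISG15, a ubiquitin-like modifier, rose from 22.7 and 17.7 CPM to 45.2 and 43.5 CPM (1.13 ± 0.11), while IFITM3, an antiviral membrane protein, fell by 0.99 ± 0.09. In antigen presentation 6 of 17 genes rose and 2 fell, at 47.1% close to the background. TAPBP, or tapasin, rose by 0.63 ± 0.08, and NLRC5, the transactivator of the class I genes, fell from 14.6 and 13.6 CPM to 4.98 and 6.29 CPM (-1.32 ± 0.18).

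**Figure D2:**
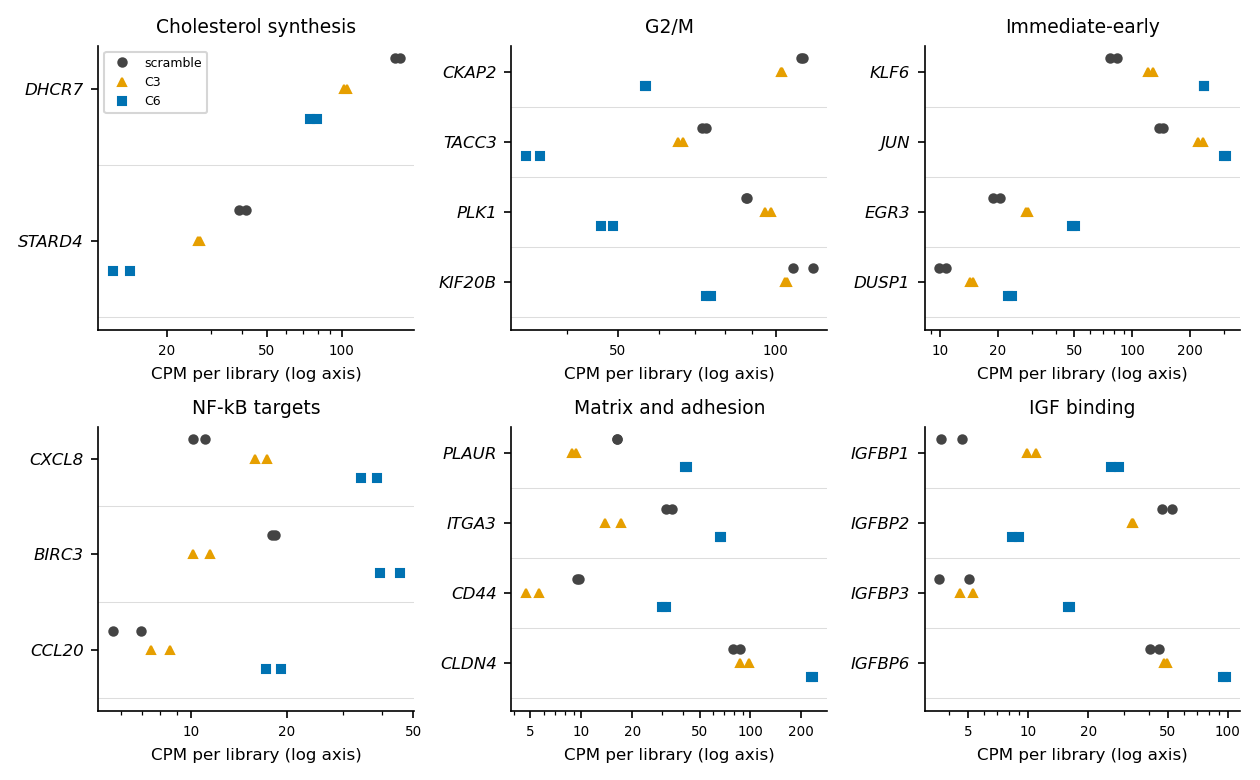
CPM per library on log axes for called members of 6 groups, 2 points per line and gene (circles scramble, triangles C3, squares C6). In the sterol and immediate-early panels C3 lies between scramble and C6, while for PLAUR, ITGA3 and CD44 it lies below scramble and C6 above.

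Genes of the cell surface and the cytoskeleton moved in several directions. Of 15 tested mesenchymal markers, 10 rose and 2 fell (median 0.52), 80% against the background of 46.7%. The list has 23 markers, and the others did not pass the filter on low counts. The 2 that fell were FN1, or fibronectin, and ITGAV, named here after their values were seen. PLAUR, the urokinase receptor, rose from 16.3 and 16.3 CPM in scramble to 40.8 and 41.9 CPM in C6 (1.34 ± 0.09, edgeR adjusted p = 2.9e-08), and L1CAM, an adhesion molecule of invasive fronts, from 85.7 and 89.6 CPM to 202 and 222 CPM (1.28 ± 0.07, neighbours' median 0.27). SNAI2, a repressor of epithelial genes, rose by 0.86 ± 0.09.

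Epithelial identity genes were more often lower, 10 of 26 against 6 higher, with 61.5% of the list called against the background of 46.7%. ST14, the membrane protease matriptase, fell from 119 and 123 CPM to 67.0 and 76.6 CPM (-0.75 ± 0.08), and ESRP1, the epithelial splicing regulator, fell by 0.59 ± 0.06. CLDN4, a claudin of tight junctions, moved the other way, from 86.2 and 79.4 CPM to 228 and 234 CPM (1.48 ± 0.07, neighbours' median 0.52, edgeR adjusted p = 6e-10), and so did ELF3, an epithelial ETS factor (1.03 ± 0.08). Among 11 tested keratins 6 rose and 2 fell (median 0.58), 72.7% against the background of 46.7%. KRT80 was at 567 and 578 CPM in scramble and 1008 and 1104 CPM in C6 (0.88 ± 0.06), and KRT19 rose from 1203 and 1097 CPM to 1963 and 1934 CPM (0.76 ± 0.06). KRT81 and KRT86 rose as well (1.40 and 0.80) but overlap each other. KRT8 and KRT18, the main pair of simple epithelium, were not called (-0.09 ± 0.06 and -0.01 ± 0.06).

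Of 14 tested integrins, the receptors for matrix, 8 rose and 4 fell, 85.7% against the background of 46.7%. ITGA3, a laminin receptor chain, was at 31.5 and 34.4 CPM in scramble and 66.8 and 66.2 CPM in C6 (1.01 ± 0.09, edgeR adjusted p = 5.3e-07), and ITGB5 rose by 0.68 ± 0.06. ITGA7 fell by 1.03 ± 0.10 on the log2 scale. The IGF binding proteins diverged: IGFBP3 and IGFBP6 rose with IGFBP1, by 1.90 ± 0.17 and 1.17 ± 0.08, while IGFBP2 fell from 52.2 and 46.9 CPM to 9.001 and 8.30 CPM (-2.52 ± 0.10, edgeR adjusted p = 1.3e-10). The neighbours' medians were 0.31 for IGFBP1 and IGFBP3 on chromosome 7 and -0.47 for IGFBP2 on chromosome 2.

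Differentiation and WNT genes were mixed. Of 29 tested WNT targets and stem cell genes, 14 fell and 9 rose (median -0.23), 79.3% against the background of 46.7%. Less their neighbours' medians, 10 were lower and 8 higher (median -0.05). LGR4, an R-spondin receptor, fell from 8.21 and 9.57 CPM to 1.90 and 1.98 CPM (-2.19 ± 0.18), and NOTUM, which inactivates WNT ligands, from 292 and 272 CPM to 166 and 157 CPM (-0.80 ± 0.06). CD44, a hyaluronan receptor, rose from 9.40 and 9.76 CPM to 29.9 and 31.6 CPM (1.68 ± 0.11, edgeR adjusted p = 2.1e-08). Of 20 tested products of enterocytes and goblet cells, 7 rose and 4 fell, 55% of the list against the background of 46.7%. The list's median was nonetheless -0.41. That median ranged from -0.61 without the second C6 library to -0.17 without the first scramble library, was -0.21 without the first C6 library, and was -0.14 with a filter of 1 CPM. VIL1, the brush border protein villin, fell from 284 and 300.2 CPM to 136 and 140.0 CPM (-1.08 ± 0.06, neighbours' median -0.38). The adhesion proteins CEACAM5 and CEACAM6, low in scramble at 2.27 and 1.97 CPM and 0.557 and 0.335 CPM, were at 8.51 and 8.56 CPM and 6.61 and 6.69 CPM in C6. ISX, a homeobox factor of the intestine, fell by 2.26 ± 0.24, and KLF4, which favours differentiation, rose by 0.76 ± 0.10. Of 20 tested BMP and TGF-beta genes, 10 rose and 6 fell, 80% against the background of 46.7%. BMP4 and SMAD3 rose by 0.72 ± 0.06 and 0.90 ± 0.09, whereas ID2 and SMAD6 fell by 1.16 ± 0.09 and 0.85 ± 0.07. HOX genes were called in 13 of 33 cases, 6 higher and 7 lower, which at 39.4% lay below the background of 46.7%, and without the first scramble library 4 were lower. HOXB2 rose by 1.76 ± 0.16, and HOXD9 and HOXD11 fell by 0.77 ± 0.11 and 1.96 ± 0.32 in the lower stretch of chromosome 2.

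Dyskerin serves the making of ribosomes and of the spliceosome. Of 79 cytosolic ribosomal protein genes, 25 were called higher and 6 lower (median 0.11), 39.2% of the list against the background of 46.7%. The split was 12 and 9 with upper-quartile scaling, 8 and 8 without the second scramble library, 9 and 4 without the first C6 library and 34 and 1 without the first scramble library, so it rested on single libraries. RPS21 rose from 342 and 306 CPM to 585 and 557 CPM (0.82 ± 0.07) with a neighbours' median of 0.56, and FAU, which encodes RPS30 fused to a ubiquitin-like protein, rose by 0.44 ± 0.07. Ribosome assembly factors were called lower in 15 of 47 cases and higher in 4 (median -0.05), 40.4% of the list. NCL, or nucleolin, fell from 1875 and 1868 CPM to 1102 and 1093 CPM (-0.77 ± 0.06, edgeR adjusted p = 3.5e-08), NOP58, a core protein of the box C/D particle, by 0.49 ± 0.06, and NOP14 by 0.87 ± 0.06. These 3 lie in lower stretches of chromosomes 2 and 4. Less their neighbours' medians, NCL was still called (-0.45), whereas NOP58 and NOP14 were not.

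Of 34 splicing factors, 14 fell and 2 rose, 47.1% of the list against the background of 46.7%, and without the second C6 library 9 fell. HNRNPA3 fell from 509 and 501 CPM to 306 and 282 CPM (-0.78 ± 0.06, neighbours' median -0.47), and SRSF1 and SRSF5, serine and arginine rich factors, fell by 0.41 ± 0.06 and 0.54 ± 0.06. Translation factors had 12 of 29 higher and 8 lower, or 5 lower without either the second scramble or the second C6 library. EIF4A2, an RNA helicase of initiation, fell from 656 and 623 CPM to 371 and 346 CPM (-0.83 ± 0.06, neighbours' median -0.44), and EIF6, which keeps the ribosomal subunits apart, rose by 0.58 ± 0.06.

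Of the 13 genes of the mitochondrial genome, 6 were not called and 7 were called higher, 53.8% against the background of 46.7%. Upper-quartile scaling gave 6 higher and 1 lower. COX3, a subunit of complex IV, was at 7266 and 7096 CPM in scramble and 10079.6 and 10000.1 CPM in C6 (0.48 ± 0.06), and CYTB, of complex III, at 2796 and 2943 CPM and 3605 and 3736 CPM (0.36 ± 0.06). The share of all counts from the mitochondrial genome was 5.92% and 6.02% in scramble and 6.63% and 6.87% in C6. Of 58 nuclear genes of the respiratory chain, 22 rose and 9 fell (median 0.14), 53.4% of the list against the background of 46.7%. Without the second scramble library 13 rose and 8 fell (median 0.04), and without the first C6 library 14 rose and 8 fell (median 0.05). NDUFB2, of complex I, rose from 31.9 and 26.4 CPM to 63.5 and 59.8 CPM (1.08 ± 0.09, neighbours' median 0.61). COX4I1 fell by 0.67 ± 0.07 at the end of chromosome 16, where the neighbours' median was -0.70, and less that median it was not called. In glycolysis and hypoxia 9 of 28 genes rose and 4 fell, 46.4% of the list and close to the background. CA9, a carbonic anhydrase induced by low oxygen, rose from 43.2 and 35.9 CPM to 88.1 and 84.4 CPM (1.12 ± 0.10, edgeR adjusted p = 5.4e-07), and PFKP, a phosphofructokinase, fell by 0.47 ± 0.06.

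Stress lists moved in both directions. In the ATF4 response 12 of 33 genes rose and 11 fell, 69.7% of the list against the background of 46.7%. PYCR1, an enzyme of proline synthesis, rose from 267 and 259.7 CPM to 419 and 457 CPM (0.73 ± 0.06), and NUPR1, a stress-induced chromatin protein, fell from 21.7 and 20.7 CPM to 7.22 and 7.84 CPM (-1.49 ± 0.11). Endoplasmic reticulum chaperones had 4 of 22 higher and 4 lower, at 36.4% below the background of 46.7%, with DNAJB9 at 0.92 ± 0.08 (neighbours' median 0.49) and CALR, or calreticulin, at -0.43 ± 0.06. Of 21 heat shock genes, 6 rose and 7 fell, 61.9% of the list against the background of 46.7%. HSPA1A and HSPA1B, nearly identical copies whose reads may not have been separated, rose by 1.13 ± 0.07 and 0.81 ± 0.07. Of 25 p53 targets, in a line that carries mutant p53, 11 rose and 3 fell, or 10 and 5 with upper-quartile scaling. With TMM 56% of this list was called, against the background of 46.7%. GADD45A, a growth arrest protein, rose from 201 and 192 CPM to 468 and 440.5 CPM (1.21 ± 0.06, edgeR adjusted p = 1.6e-09), and CCNG1 fell from 100.01 and 94.2 CPM to 50.4 and 42.2 CPM (-1.07 ± 0.09).

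Among 27 antioxidant and iron genes 11 rose and 6 fell, but without the second scramble library 6 rose and 5 fell, without the first C6 library 6 and 6, and with upper-quartile scaling 8 and 8. With TMM and all libraries, 63.0% of those tested were called, against the background of 46.7%. GPX4, which removes lipid peroxides, rose from 142 and 141 CPM to 206 and 200.00 CPM (0.52 ± 0.06). SLC40A1, the iron exporter ferroportin, fell from 19.0 and 20.7 CPM to 3.80 and 2.62 CPM (-2.63 ± 0.16), and TFRC, outside the list, the receptor that imports iron with transferrin, from 800.5 and 829 CPM to 402 and 402 CPM (-1.02 ± 0.06). Both lie in lower stretches, with neighbours' medians of -0.56 and -0.52. Of 32 tested lysosomal genes, 17 rose and 6 fell (median 0.22), 71.9% against the background of 46.7%. WIPI1, an autophagy protein, rose from 24.0 and 22.6 CPM to 48.5 and 48.3 CPM (1.05 ± 0.08), and CTSB, or cathepsin B, by 0.55 ± 0.06 (neighbours' median 0.32). Among the genes named above, NHP2, WRAP53, ORMDL2, PLK1, TACC3, ANLN, UHRF1, TAPBP, KRT8, KRT18, ITGA7, VIL1, CCNG1, COX3 and WIPI1 each overlap another gene of the annotation, whose reads may not have been kept apart.

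**Figure D3:**
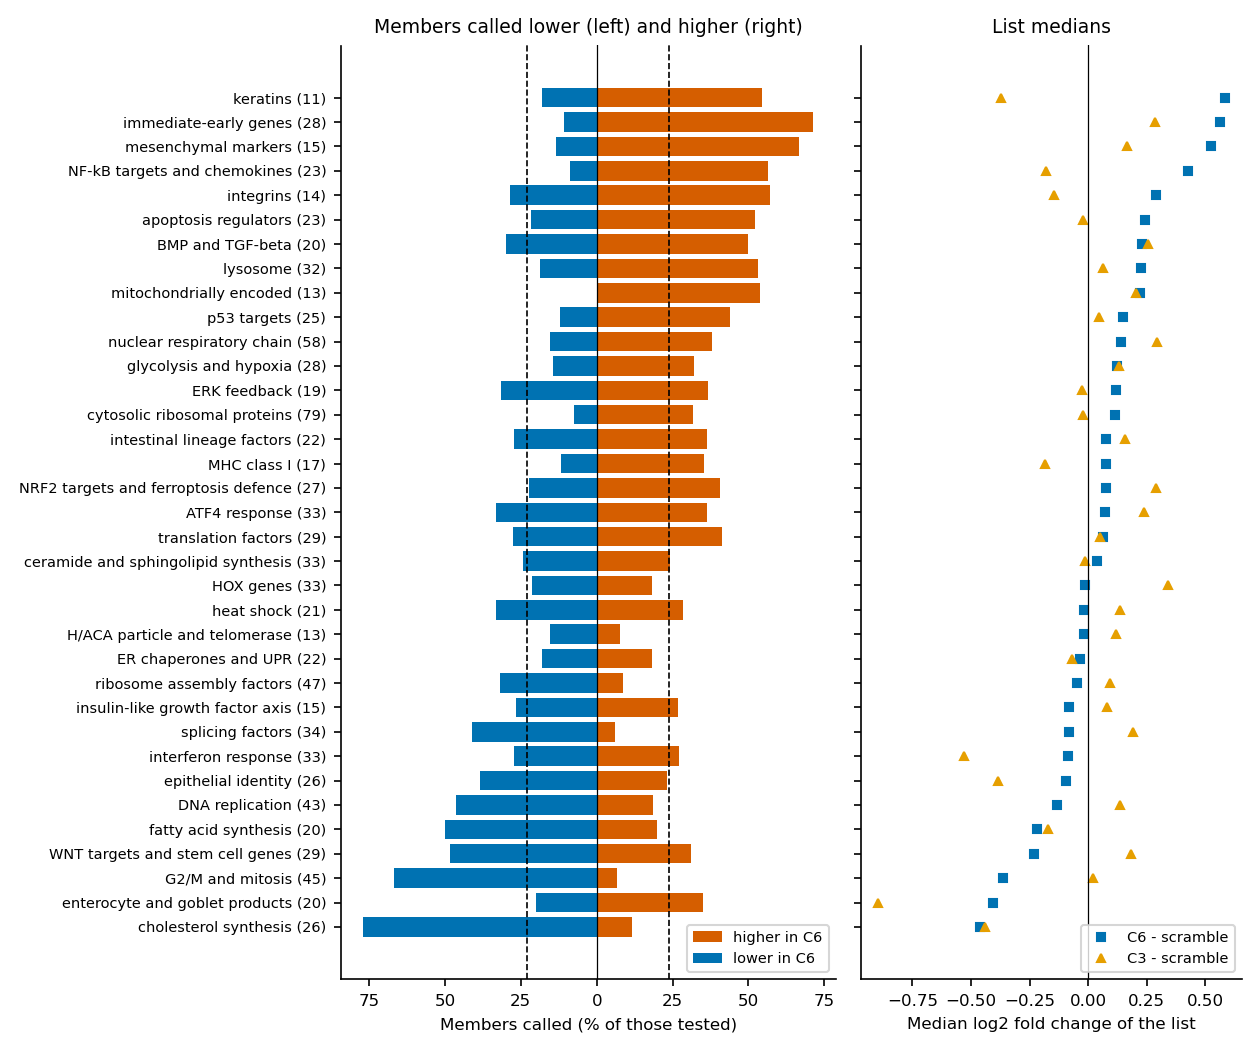
Left: share of the tested members of 35 gene lists called lower (left of 0) and higher (right of 0) in C6, with the number tested in brackets; dashed lines mark the 22.8% and 23.8% of all tested genes. Right: median log2 fold change of each list in C6 (squares) and C3 (triangles) against the same scramble libraries. Cholesterol synthesis and G2/M have the largest shares called lower, and immediate-early genes and mesenchymal markers the largest shares called higher.

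Part of the called genes, 1398 of 6205, lay in stretches of neighbouring genes that moved together. A running median of the log2 fold change over 51 neighbouring tested genes was at least 0.25 away from 0 in 16 stretches of at least 20 genes, 8 higher and 8 lower in C6, which held 2041 of 13254 tested genes with a position (15.4%). Inside them 68.5% of genes were called, and outside 42.7%. The stretches were described only, since the same fold changes defined them. With a running median of at least 0.4 they held 1290 genes.

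The largest was a lower stretch on the long arm of chromosome 2 (chr2:152651732-241817413, GRCh38.p14) with 368 tested genes and a median of -0.45. Chromosome 7 was higher over nearly its whole length, in 3 stretches with medians of 0.45, 0.50 and 0.55. CAV1, the coat protein of caveolae, lies in the middle one and rose from 161 and 151 CPM to 444 and 437 CPM (1.496 ± 0.06). The short arm of chromosome 5 and the start of its long arm (chr5:92168-86620962) and the short arm of chromosome 8 (chr8:232137-42171183) were higher, with medians of 0.37 and 0.39. The start of chromosome 4 (chr4:53321-15681569, -0.64), the end of chromosome 16 (chr16:81314962-90044960, -0.67), the end of chromosome 3 (chr3:184229585-198043720, -0.43) and much of the long arm of chromosome 13 (chr13:46125923-114327322, -0.51) were lower. In C3 the same stretches had medians of -0.03, 0.01, -0.02 and -0.03. Both lines were shifted at the end of chromosome 4 (chr4:153466360-189963192, -0.55 in C6 and -0.53 in C3), at the end of chromosome 20 (0.56 and 0.43) and at the end of chromosome 7 (0.55 and 0.38). Whether these stretches differ in DNA copy number between the lines was not tested.

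Several genes went against their stretch or moved far beyond it. GRIK2, a kainate receptor subunit, rose from 30.4 and 33.8 CPM to 144 and 153 CPM (2.21 ± 0.08) in a lower stretch of chromosome 6. GPR35 and CCL20 rose, and RAMP1 and IGFBP2 fell by far more than their neighbours, within the same stretch of chromosome 2. Of the 15 largest rises 6 lay in a stretch, as did 2 of the 15 largest falls. When the running median was taken out as an offset, 5424 genes were called.

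**Figure D4:**
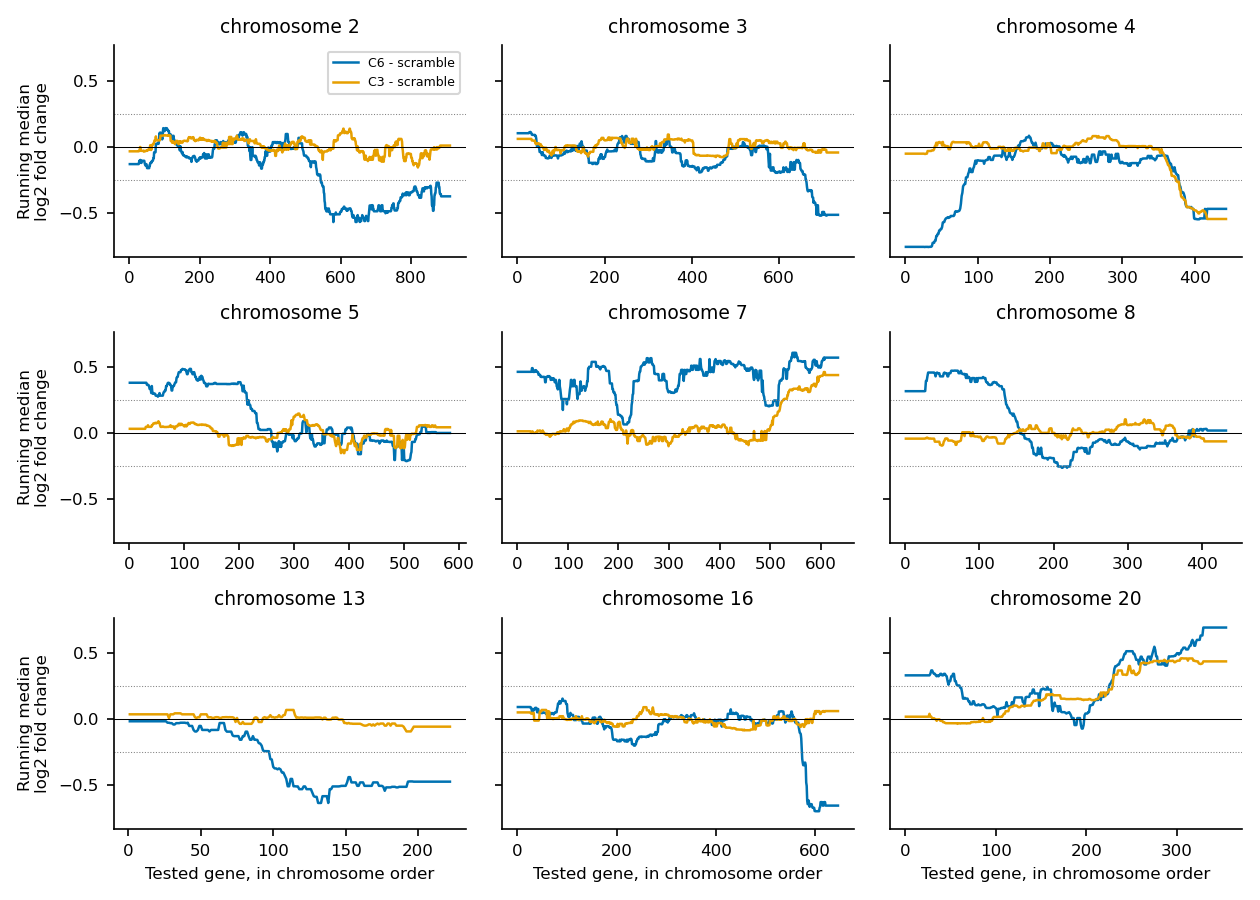
Running median of the log2 fold change over 51 neighbouring tested genes along 9 chromosomes, for C6 (blue) and C3 (orange) against scramble; the x axis counts tested genes in chromosome order and dotted lines mark 0.25 either side of 0. C6 departs from 0 over long runs of chromosomes 2, 5, 7, 8 and 13 where C3 stays near 0, and both lines depart at the ends of chromosomes 4 and 20.

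C6 also differed from the other knockdown line. Both lines were set against the same scramble libraries, so each gene's difference was tested as C6 minus C3. In that contrast 6538 genes were called (49.2% of those tested), 3339 higher (25.1%) and 3199 lower (24.1%) in C6, and 728 and 607 of them by at least 2-fold. Against scramble, 24.3% of genes were called in C3.

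Cell cycle genes differed between the lines. Of the 45 G2/M genes, 28 were lower in C6 than in C3 and 2 higher, and in C3 against scramble 3 were higher and 3 lower. PLK1 was at 95.5 and 97.9 CPM in C3, and C6 was lower (log2 difference -1.02 ± 0.07, edgeR adjusted p = 1.2e-08). Of the nuclear respiratory chain genes, 27 of 58 were lower in C6 than in C3 and 5 higher. In that list 41 were called higher in C3 against scramble and 17 were not called. Splicing factors were lower in C6 than in C3 in 26 of 34 cases, and in the list 22 were called higher in C3 against scramble and 1 lower. Cholesterol genes were low in both lines, with 18 of 26 called lower in C3, and 11 were lower in C6 than in C3 and 8 higher. STARD4 was at 26.5 and 27.0 CPM in C3, above C6 (log2 difference -1.03 ± 0.10, edgeR adjusted p = 9.1e-07).

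NF-kB targets and keratins lay above C3. Of 23 NF-kB targets and chemokines, 16 were higher in C6 than in C3 and 3 lower, and of 11 keratins 10 were higher. CD44 was at 5.62 and 4.70 CPM in C3 and BIRC3 at 11.4 and 10.1 CPM, both below scramble, where C6 was above it. SLCO1B3, an organic anion transporter that overlaps the readthrough gene SLCO1B3-SLCO1B7, was at 0.258 and 0.818 CPM in C3 and 37.4 and 37.6 CPM in C6 (log2 difference 6.14 ± 0.22). Its small rise over scramble (0.36 ± 0.13) was not called with upper-quartile scaling or without any 1 of the scramble and C6 libraries.

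In the opposite direction, SEMA6A, a membrane semaphorin, was at 9.01 and 9.53 CPM in C3 and 0.911 and 0.719 CPM in C6, with scramble between them at 2.19 and 2.94 CPM (log2 difference between the lines -3.50 ± 0.25, edgeR adjusted p = 2.2e-08). ADGRL2, an adhesion G protein-coupled receptor, LHFPL6 and NREP showed the same order, with log2 differences of -3.45 ± 0.17, -3.37 ± 0.14 and -3.28 ± 0.23. PTPN13 was at 48.4 and 47.6 CPM in C3, above scramble, and BCHE at 10.2 and 10.9 CPM, between scramble and C6. For all of these genes the C6 pair lay below both other pairs.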

How the data were processed

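RNA of SW620 lines was sequenced from stranded poly(A) libraries, per the labels' protocols. The deposited table holds whole-number counts of each gene in each of 6 libraries, with no scaling applied, per the file headers. The submitters' processing notes name Trimmomatic 0.38, HISAT2 2.1.0, StringTie 2.1.3b, DESeq2 and build hg38. The sources used here do not say how reads were assigned to genes. In all libraries even counts outnumbered odd ones among low counts, so the counts may not be plain tallies of reads, while the tests take them as such.

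Genes were tested with edgeR 4.0.16 in R 4.3.3 (quasi-likelihood, robust, TMM, filterByExpr) on the deposited counts. The model had 3 groups over the 6 libraries, which leaves 3 residual degrees of freedom, with Benjamini-Hochberg adjustment over the 13299 genes. The fit and the search for stretches were tested on simulated data. The members, the lists and the rules were chosen with earlier results of these data known. Named genes were DKC1, the 15 largest rises and falls (called, mean of at least 5 CPM, groups not overlapping), up to 6 genes each way at 3 counts or fewer in one group, up to 4 further members of each list by p (all members of the H/ACA and sphingolipid lists), up to 3 genes of each stretch and the 8 largest differences each way from C3. 7 genes that the rule names are not reported here. Positions came from RefSeq's GRCh38.p14 annotation, which matched 19506 of 19672 genes. Of the promoter table, with 35116 windows, the first listed window of each of 27305 genes was searched on both strands. Totals of the 6 libraries were 26077966 to 31021000 counts, at which 3 counts stand for 0.0968 to 0.114 CPM. Library pairs of each group differed beyond sampling noise, and none was merged. For 1 C3 library the genotype tag says control, but the title, which was used, says knockdown. Alternatives were RLE and upper-quartile scaling, other filters, 4 libraries alone, a replicate block, DESeq2 1.42.0, an offset for neighbouring genes, and leaving out each library.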

Additional observations from a re-analysis of the deposited data

Results flagged for a closer look

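For 41 of the 270 named genes the lines moved apart. Each was called in C6 and in C3 against scramble with opposite signs, and C6 minus C3 was itself called in edgeR's test. Some genes were named for a large difference from C3, so 41 does not estimate a share of all genes tested. That share was not counted. The 2 comparisons share the scramble libraries, so the difference between the lines is given, on the log2 scale. Of the 41 genes, 22 were higher in C6 and lower in C3, and 19 the reverse.

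Differences of at least 2 in size were seen for genes of the first kind in SLCO1B3 (6.14), CEACAM6 (5.57), APOL6 (4.89), KLRC2 (4.85), CEACAM5 (4.50), SPRR2D (4.04), GPR35 (3.22), GRIK2 (2.65), CD44 (2.57), PLAUR (2.19), NTSR1 (2.11) and ITGA3 (2.095). The smaller ones were BIRC3 (1.97), CAV1 (1.84), CA9 (1.57), KRT86 (1.2), SMAD3 (1.16), CTSB (1.09), DUSP5 (1.09), KRT19 (1.03), HLA-E (0.79) and BCL2L1 (0.76).

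Among genes lower in C6 and higher in C3 the larger differences were PTPN13 (-3.74), SEMA6A (-3.50), ADGRL2 (-3.45), LHFPL6 (-3.37), NREP (-3.28), ISX (-2.92), GPR155 (-2.88), SOBP (-2.44) and PALLD (-2.32). The smaller ones were NUPR1 (-1.87), VIL1 (-1.42), HNRNPA3 (-1.14), LUM (-1.07), SLC7A5 (-1.03), NCL (-0.98), UHRF1 (-0.96), COX4I1 (-0.89), SRSF1 (-0.68) and CALR (-0.59). For SLCO1B3 the call in C6 itself was lost with upper-quartile scaling and without any 1 of the scramble and C6 libraries.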

How the results depend on the processing

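The count of 6205 genes called in C6 was 4584 without the second scramble library and 6006 without the first C3 library, the ends of the range over single libraries left out. It was 5287 by DESeq2, 6309 with upper-quartile scaling (2624 higher and 3685 lower) and 6082 with the 4 scramble and C6 libraries alone. The stretches held 1290 genes with a running median of at least 0.4 and 2041 with at least 0.25. Of 238 named genes called in C6, 211 kept call and direction under every alternative run. With the neighbours' running median as an offset the direction turned for ORMDL1 (0.12), B4GALT5 (-0.088), ASAH1 (-0.16), COX4I1 (0.025), SF3B1 (0.017) and TUBB3 (0.46), and only TUBB3 was then called. The construction of that offset takes out what a gene shares with its neighbours. Replicate numbers did not pair the libraries: deviations of same-numbered libraries correlated at -0.05, 0.06 and 0.03, and a fit blocked on the replicate number called 5878 genes.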
